A study of Mus musculus with 12 samples.

Results

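The genes described here are 8 markers of the adrenal X-zone, Akr1c18, Pik3c2g, Cyp2f2, Thrb, Sbsn, Nr0b1, Tubb3 and Fbxo15, out of 18617 genes named by the probes of the array. A gene was taken when its symbol stood beside a probe in the platform's annotation, whatever its ratio, and the 8 genes were measured by 9 probes, with 2 for Thrb and 1 for each of the others. All 9 probes had a value on all 12 arrays, and all 8 genes passed the filter for missing values. The arrays compared adrenal RNA of transgenic mice of 1 line, line #56, which carry a YAC with additional Ftz-F1 (Nr5a1) gene copies, with RNA of wild-type littermates matched for sex and age. The 4-month-old transgenic mice had 2 transgene copies, in 1 female pair (pair 5) and 2 male pairs (pairs 1 and 3). The 10-day-old transgenic mice had 1 copy, in 1 female pair (pair 15) and 2 male pairs (pairs 11 and 13). Pairs are named by the number of the transgenic mouse, and each pair has 2 arrays that differ in which mouse was in Cy3 and which in Cy5. Age and copy number changed together and cannot be told apart.

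The X-zone is a layer of the mouse adrenal cortex next to the medulla that derives from the fetal cortex. It regresses at puberty in males, while in females it is kept until the first pregnancy. SF-1, the product of Ftz-F1, is the nuclear receptor needed to form the cortex, and DAX-1, the product of Nr0b1, is a nuclear receptor that represses SF-1 targets. The labels do not say whether the females had been mated.

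SF-1 can bind DNA as a monomer at sites that contain AGGTCA. The upstream sequences of the members whose ratios are described first are therefore shown. Each window holds the 250 bases before an annotated start in the GRCm38.p6 build of RefSeq, 5′ to 3′ on the strand of the gene. The windows are chr13:4150647-4150896 on the minus strand for Akr1c18, and, on the plus strand, chr6:139613822-139614071 for Pik3c2g, chr7:27119705-27119954 for Cyp2f2 and chrX:86191525-86191774 for Nr0b1. Capitals mark AAGGTCA or, where the extra A is missing, AGGTCA, both searched on both strands, and every AAGGTCA also holds AGGTCA.
Akr1c18: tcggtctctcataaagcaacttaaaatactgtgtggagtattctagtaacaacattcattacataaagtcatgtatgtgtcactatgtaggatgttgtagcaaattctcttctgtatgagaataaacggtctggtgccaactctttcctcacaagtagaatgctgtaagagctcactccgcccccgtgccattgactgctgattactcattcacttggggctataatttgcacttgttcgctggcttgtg
Pik3c2g: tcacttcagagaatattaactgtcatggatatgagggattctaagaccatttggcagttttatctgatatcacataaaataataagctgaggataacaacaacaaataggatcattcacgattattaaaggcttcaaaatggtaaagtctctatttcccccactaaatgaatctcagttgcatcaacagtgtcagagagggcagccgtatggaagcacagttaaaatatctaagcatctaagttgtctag
Cyp2f2: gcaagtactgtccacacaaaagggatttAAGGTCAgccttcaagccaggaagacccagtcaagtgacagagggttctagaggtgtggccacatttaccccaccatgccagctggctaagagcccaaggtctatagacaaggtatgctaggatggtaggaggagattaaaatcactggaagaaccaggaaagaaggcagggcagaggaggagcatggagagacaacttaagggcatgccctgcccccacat
Nr0b1: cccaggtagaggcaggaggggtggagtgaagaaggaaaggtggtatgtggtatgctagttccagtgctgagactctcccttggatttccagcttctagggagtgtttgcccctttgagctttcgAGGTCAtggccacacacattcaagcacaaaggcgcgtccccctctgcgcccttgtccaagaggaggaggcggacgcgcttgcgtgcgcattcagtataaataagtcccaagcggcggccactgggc
AAGGTCA began at position -222 of the Cyp2f2 window, and AGGTCA without the extra A at position -126 of the Nr0b1 window. Of 32851 mouse windows of this length 4.08% held AAGGTCA and 14.0% held AGGTCA. RefSeq windows of 7 of the 8 genes were used, 9 windows in all, and Fbxo15 was left out. Of the windows not shown, 1 of those of Thrb held AGGTCA, at position -184. The windows of Sbsn and Tubb3, the other Pik3c2g window and the other Thrb window held neither. A match describes these letters only. Other sequences that SF-1 can bind were not searched, and no binding was measured.

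Values below are log2 ratios less a dye trend fitted on each array, with both arrays of a pair averaged to 1 value. The trend was read at 1 signal per probe, shared by all arrays. A probe that was dim in some pairs and bright in others can thus keep part of the trend. The sign of the ratios is the deposited one. The sources do not say whether wild type is the denominator or the numerator, so a negative ratio is a lower level in the transgenic mouse in the first case and a higher level in the second. Once the mean of each dye orientation was removed, both arrays of a pair had a correlation of 0.23 to 0.66 over features, against -0.28 to 0.12 for 30 combinations across pairs. Nr5a1 itself was at -0.22, -0.46 and 0.11 in pairs 5, 1 and 3 at 4 months, and at -0.79, -0.57 and -0.65 in pairs 15, 11 and 13 at 10 days, with a mean of -0.43 (SE 0.09, 6 pairs, limma adjusted p = 0.104). Its ratio was negative in 5 of 6 pairs, and whether the probe also detects transcripts of the transgene is not given. Over all 6 pairs 12 of 21513 tested features passed an adjusted p of 0.05, or 0.0558%, and in the other comparisons 0 passed. The number of arrays limits the precision, and p-values measure the spread between these pairs only.

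None of the 8 genes passed in limma over all 6 pairs, at 4 months, at 10 days, between the ages or between the sexes, and the ordinary linear model called none either. At an unadjusted p under 0.05 there were 2 of 8 over all 6 pairs, Nr0b1 and Tubb3, where 15% of all features lay under that p. At 4 months it was 1, Nr0b1, against 12.3% of all features. At 10 days it was 1, Cyp2f2, against 8.34%. Between the ages it was 0, against 4.56%, and between the sexes 1, Nr0b1, against 5.76%. The median of the 8 genes was -0.13 at 4 months, -0.20 at 10 days and -0.27 over all 6 pairs, and that of all features was -0.01 in each case. The ratios of 5 of the 8 were negative over all 6 pairs, 5 at 4 months and 6 at 10 days.

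Each member with a ratio at or beyond 2 on the log2 scale reached that bound in a single pair. In pair 5, the 4-month female pair, 2 of the 8 lay at or beyond 2 on the log2 scale in either direction, Pik3c2g and Akr1c18, against 0.136% of all features. In pair 15, the 10-day female pair, it was 1 of 8, Cyp2f2, against 0.108%. The male pairs had 0 of 8 at that bound, against 0.0997% in pair 1, 0.738% in pair 3, 0.132% in pair 11 and 0.0562% in pair 13. At a bound of 1, pair 11 had 3 of 8, Pik3c2g, Cyp2f2 and Akr1c18, against 1.95% of all features, and pair 3 had 1, Sbsn, against 3.43%. Pairs 5 and 15 had the same genes as at the bound of 2, against 0.977% and 1.49%, and pairs 1 and 13 had 0, against 1.48% and 0.384%. With 1 female pair at each age, no pair of the same age and sex stands beside pair 5 or pair 15. In whole adrenals a difference in RNA per cell cannot be told apart from one in the number of X-zone cells, whichever mouse is higher.

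**Figure D1:**
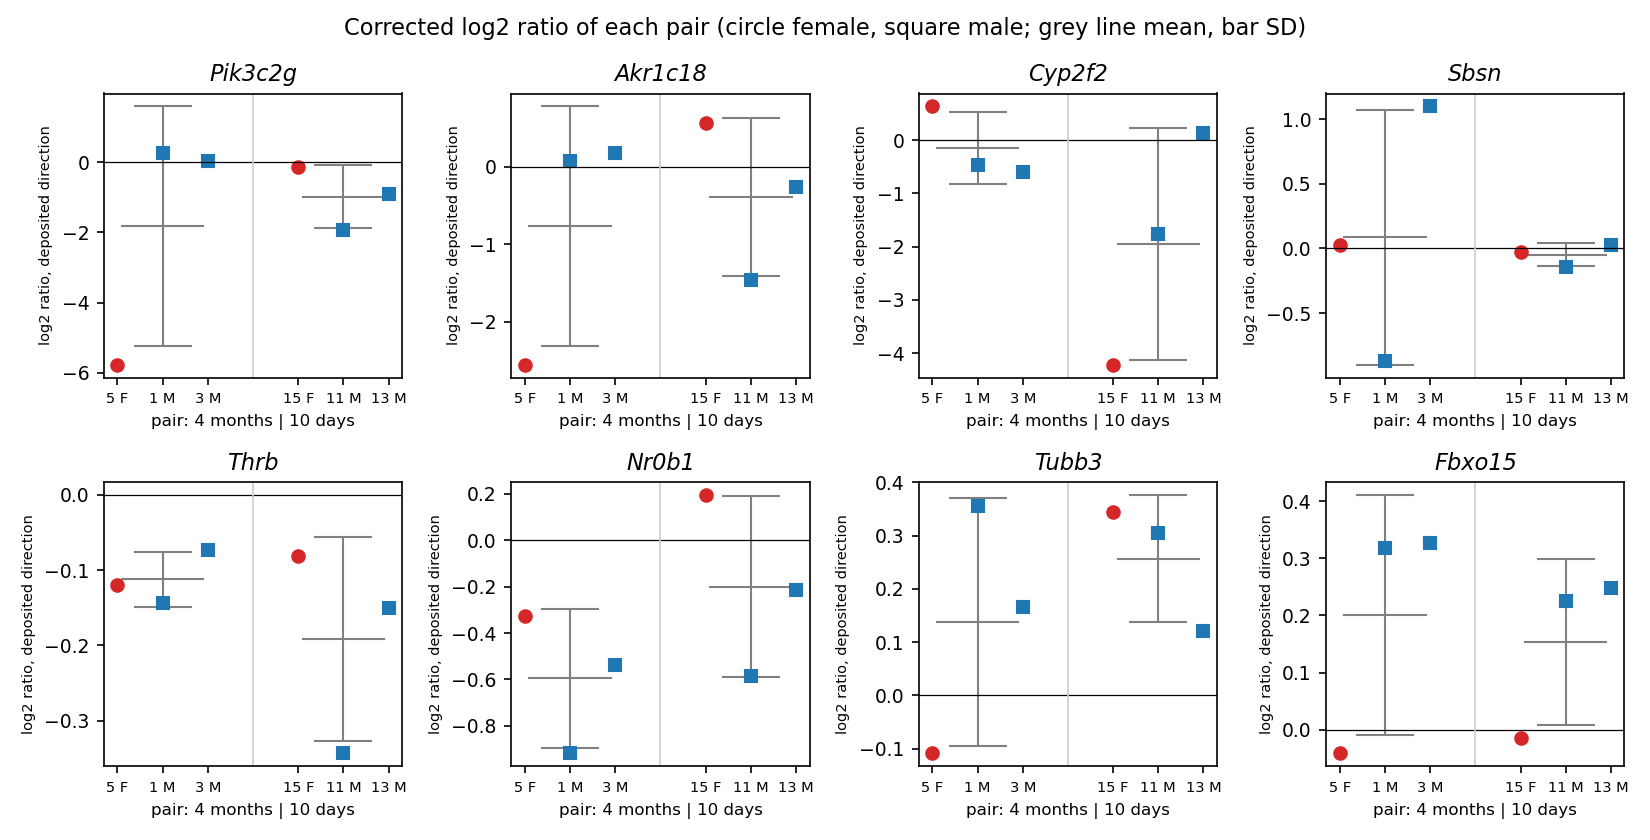
Log2 ratio (vertical axis, dye trend corrected, deposited direction) of each X-zone marker gene in the 3 pairs at 4 months and the 3 pairs at 10 days (horizontal axis), 1 point per pair, circles female and squares male, with a grey line at the mean and a bar of 1 SD for each age. Pik3c2g and Akr1c18 lie lowest in pair 5 and Cyp2f2 in pair 15, and for each gene the values of the ages overlap.

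Pik3c2g encodes a class II phosphoinositide 3-kinase. Its ratio was -5.77, 0.26 and 0.03 in pairs 5, 1 and 3 at 4 months, and -0.12, -1.92 and -0.90 in pairs 15, 11 and 13 at 10 days. The 4-month female pair was thus far below both male pairs of its age, while at 10 days the 2 male pairs were the lower ones, and the ranges of the ages overlapped. Pair 5 differed 54.5-fold between the mice, with -5.97 and -5.57 on its 2 arrays, and Pik3c2g ranked 3rd lowest of 17797 named genes there. In pair 11 it differed 3.79-fold, with -2.16 and -1.68 on the 2 arrays, and ranked 12th lowest of 17697. In pair 13 it differed 1.86-fold. The values near 0 in pairs 1 and 3 averaged arrays of opposite sign, -1.53 and 2.05 in pair 1 and -1.65 and 1.71 in pair 3. Before the correction these arrays were at -1.50 and 2.48 in pair 1 and -1.27 and 2.18 in pair 3. How much of the dye trend was left in them was not tested. The mean was -1.82 ± 3.42 at 4 months (SD, n = 3; limma adjusted p = 0.504) and -0.98 ± 0.90 at 10 days (SD, n = 3; limma adjusted p = 0.848). Neither mean passed, and their difference was -0.84 (limma adjusted p = 0.968). Without pair 5 the 4-month mean was 0.15, of the opposite sign. The female minus male difference was -2.31 (SE 1.38, limma adjusted p = 0.918) and rested on pair 5: it was 1.29 without that pair and -5.91 without pair 15, when pair 5 was the only female pair and all spread came from male pairs.

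Akr1c18 encodes the hydroxysteroid dehydrogenase that converts progesterone to a less active metabolite, and is the usual marker of the X-zone. Its ratio was -2.56, 0.07 and 0.18 in pairs 5, 1 and 3 at 4 months, against 0.56, -1.47 and -0.27 in pairs 15, 11 and 13 at 10 days. The lowest values were again those of pairs 5 and 11, and the ranges of the ages overlapped. The arrays of pair 5, at -2.55 and -2.56, differed by less than those of any other pair, while the values near 0 in pairs 1 and 3 averaged arrays of opposite sign, -0.58 and 0.72 in pair 1 and -0.17 and 0.52 in pair 3. Akr1c18 ranked 9th lowest of 17797 named genes in pair 5, a 5.88-fold difference between the mice, and 59th lowest in pair 11, a 2.76-fold difference. In the 10-day female pair its ratio was positive on both arrays, 0.77 and 0.35. The mean was -0.77 ± 1.55 at 4 months and -0.39 ± 1.02 at 10 days (SD, n = 3 each; limma adjusted p = 0.587 and 0.898), with a difference of -0.38 (limma adjusted p = 0.976). Without pair 5 the 4-month mean was 0.12, and without pair 11 the 10-day mean was 0.15, so the sign of each mean rested on 1 pair.

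Other genes that were low in pair 5, named after their values were seen, were Bhmt at -6.44, Apoc1 at -6.28, Acsm4 at -4.63 and Adh7 at -3.94. All 4 were also negative in pair 15, the other female pair, at -2.46, -1.52, -1.25 and -3.94, and Adh7 was negative in 6 of 6 pairs. In pair 15, by contrast, Pik3c2g was at -0.12 and Akr1c18 at 0.56. In the male pairs Bhmt, Apoc1 and Acsm4 had values of both signs. Apoc1 was at -2.81 in pair 13 and 2.86 in pair 11, and Adh7 at -2.93 in pair 3. In pair 5 the median of the 17 measured chromaffin cell markers was 0.60. That of 13 leukocyte markers was -0.40, with 0 of 13 positive and Aif1 at -1.90. The 7 ovary markers had a median of -0.07, with a range of -1.25 for Amhr2 to 0.36 for Fshr. The medians of 14 hepatocyte and 10 kidney tubule markers were -0.03 and -0.02, with the kidney genes Slc34a1 and Cdh16 both at -0.08. The part of these cells in the ratios of Pik3c2g and Akr1c18 was not tested.

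Cyp2f2 encodes a cytochrome P450 that is also abundant in liver and lung. Its ratio was 0.63, -0.47 and -0.60 in pairs 5, 1 and 3 at 4 months, and -4.21, -1.76 and 0.12 in pairs 15, 11 and 13 at 10 days. The low values of Cyp2f2 therefore came from another female pair than those of Pik3c2g and Akr1c18, and in pair 5 its ratio was positive on both arrays, at 0.71 and 0.55. Cyp2f2 was the lowest of 17770 named genes in pair 15, an 18.6-fold difference between the mice, and the 25th lowest in pair 11, a 3.39-fold difference. The sign was the same on both arrays of these pairs, but the size was not, at -2.60 and -5.83 in pair 15 and -0.99 and -2.53 in pair 11. The mean was -0.15 ± 0.68 at 4 months (SD, n = 3; limma adjusted p = 0.943) and -1.95 ± 2.18 at 10 days (SD, n = 3; unadjusted p = 0.0199, limma adjusted p = 0.499). Their difference of 1.80 did not pass (limma adjusted p = 0.933), nor did the female minus male difference of -1.11 (limma adjusted p = 0.93), which was 1.17 without pair 15.

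Markers of other cells were uneven in the same pairs. In pair 15 the median of 7 adipocyte markers was 1.63, with all 7 positive and Adipoq (adiponectin), Cidec (a lipid droplet protein) and Fabp4 (a fatty acid binding protein) at 5.13, 2.94 and 2.73. In pair 11 the median of 14 hepatocyte markers was 0.71, with 13 positive and Alb (albumin), Ahsg (fetuin) and Fgg (a fibrinogen chain) at 6.73, 5.56 and 3.22, where Cyp2f2, Pik3c2g and Akr1c18 were negative. Their part in the ratios of the members was not tested. Leaving out pairs 11, 15 and 3 together put the Cyp2f2 mean at 0.10, against -1.05 over all 6 pairs (SE 0.47, limma adjusted p = 0.354). These pairs had the lowest Cyp2f2 values, at -1.76, -4.21 and -0.60, so a higher mean was bound to follow. Only pair 13 was then left at 10 days.

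**Figure D2:**
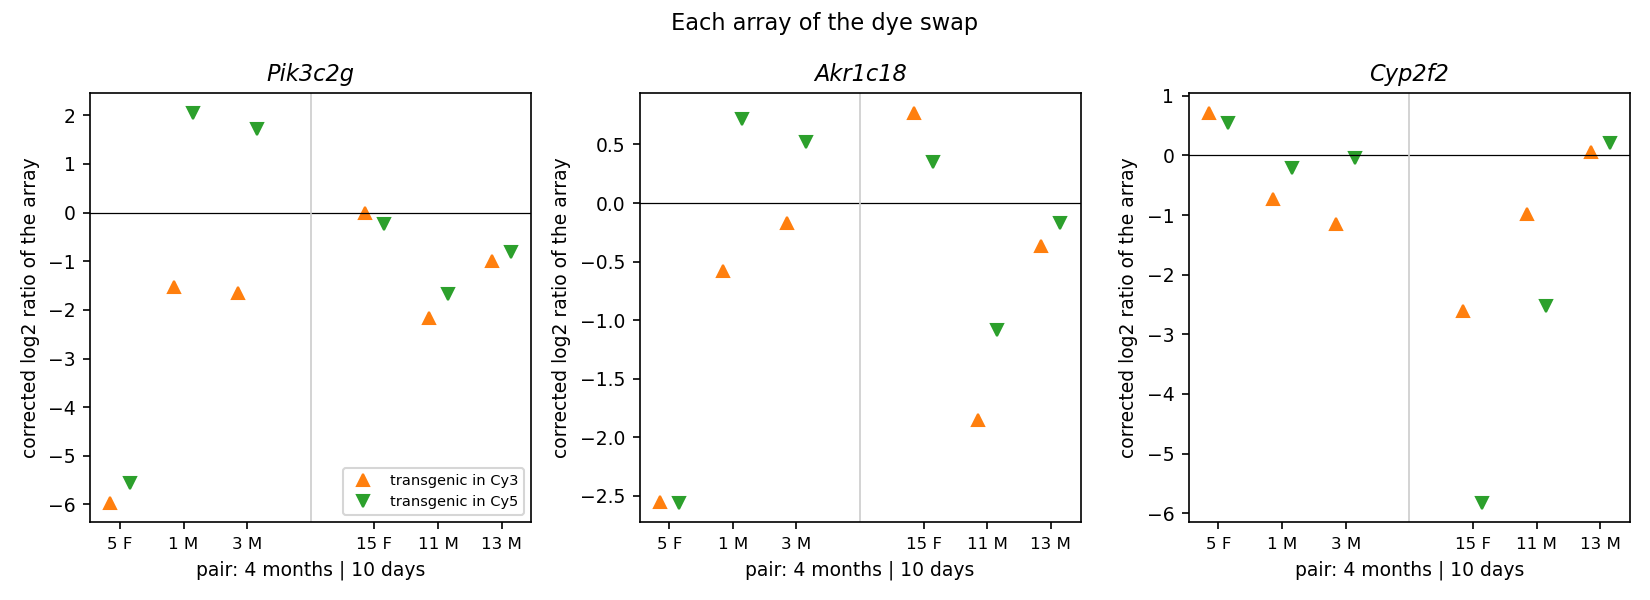
Log2 ratio (vertical axis, dye trend corrected, deposited direction) of Akr1c18, Pik3c2g and Cyp2f2 on each of the 12 arrays, by pair (horizontal axis) and by the dye of the transgenic sample (marker). The 2 arrays of pair 5 nearly coincide for Akr1c18 and Pik3c2g, while Cyp2f2 in pair 15 and Pik3c2g in pairs 1 and 3 differ between the dyes.

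Where the transgenic sample was in Cy3, on 6 arrays, the deposited ratios could be read back as fractions of whole numbers, in lowest terms, which gives the brightness of each spot up to a common factor. The Pik3c2g spot of pair 5 was 277 over 16788, and that of pair 15 was 10207 over 11982. Both female pairs thus had a bright denominator, brighter than the larger number of 98.7% and 98.6% of spots, and only in pair 15 was the numerator bright too. In pairs 1 and 3, the male pairs at 4 months, Pik3c2g was 103 over 292 and 91 over 220, and its larger number exceeded that of 35.9% and 46.0% of spots. In pairs 11 and 13, the male pairs at 10 days, it was 1026 over 4439 and 889 over 1970, above 94.1% and 91.8% of spots.

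Akr1c18 also had its largest number in pair 5, at 2732 over 15157, and was 4498 over 3079 in pair 15. Its spots were dim in pair 1, at 67 over 94, and brighter in pair 3, at 747 over 629, while pairs 11 and 13 had 1444 over 4911 and 1005 over 1406. So the 4-month male spots of both genes were the dimmest of the 6, as a description of 2 mice on each side. Cyp2f2 was 13107 over 6764 in pair 5, against 801 over 1070 and 505 over 704 in the male pairs 1 and 3. At 10 days it was 2633 over 17166 in pair 15, 17657 over 28200 in pair 11 and 21845 over 20533 in pair 13, and its larger number exceeded that of 99.1% to 99.4% of spots in these 3 pairs. Since a common factor can be missing, a small number sets only a lower bound on the brightness. The Cyp2f2 numerators 13107 in pair 5 and 21845 in pair 13 both divide the scanner limit, the largest number a spot can have, without remainder. Whether these spots were at that limit, so that the size of their ratios was not fully measured, was not tested.

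**Figure D3:**
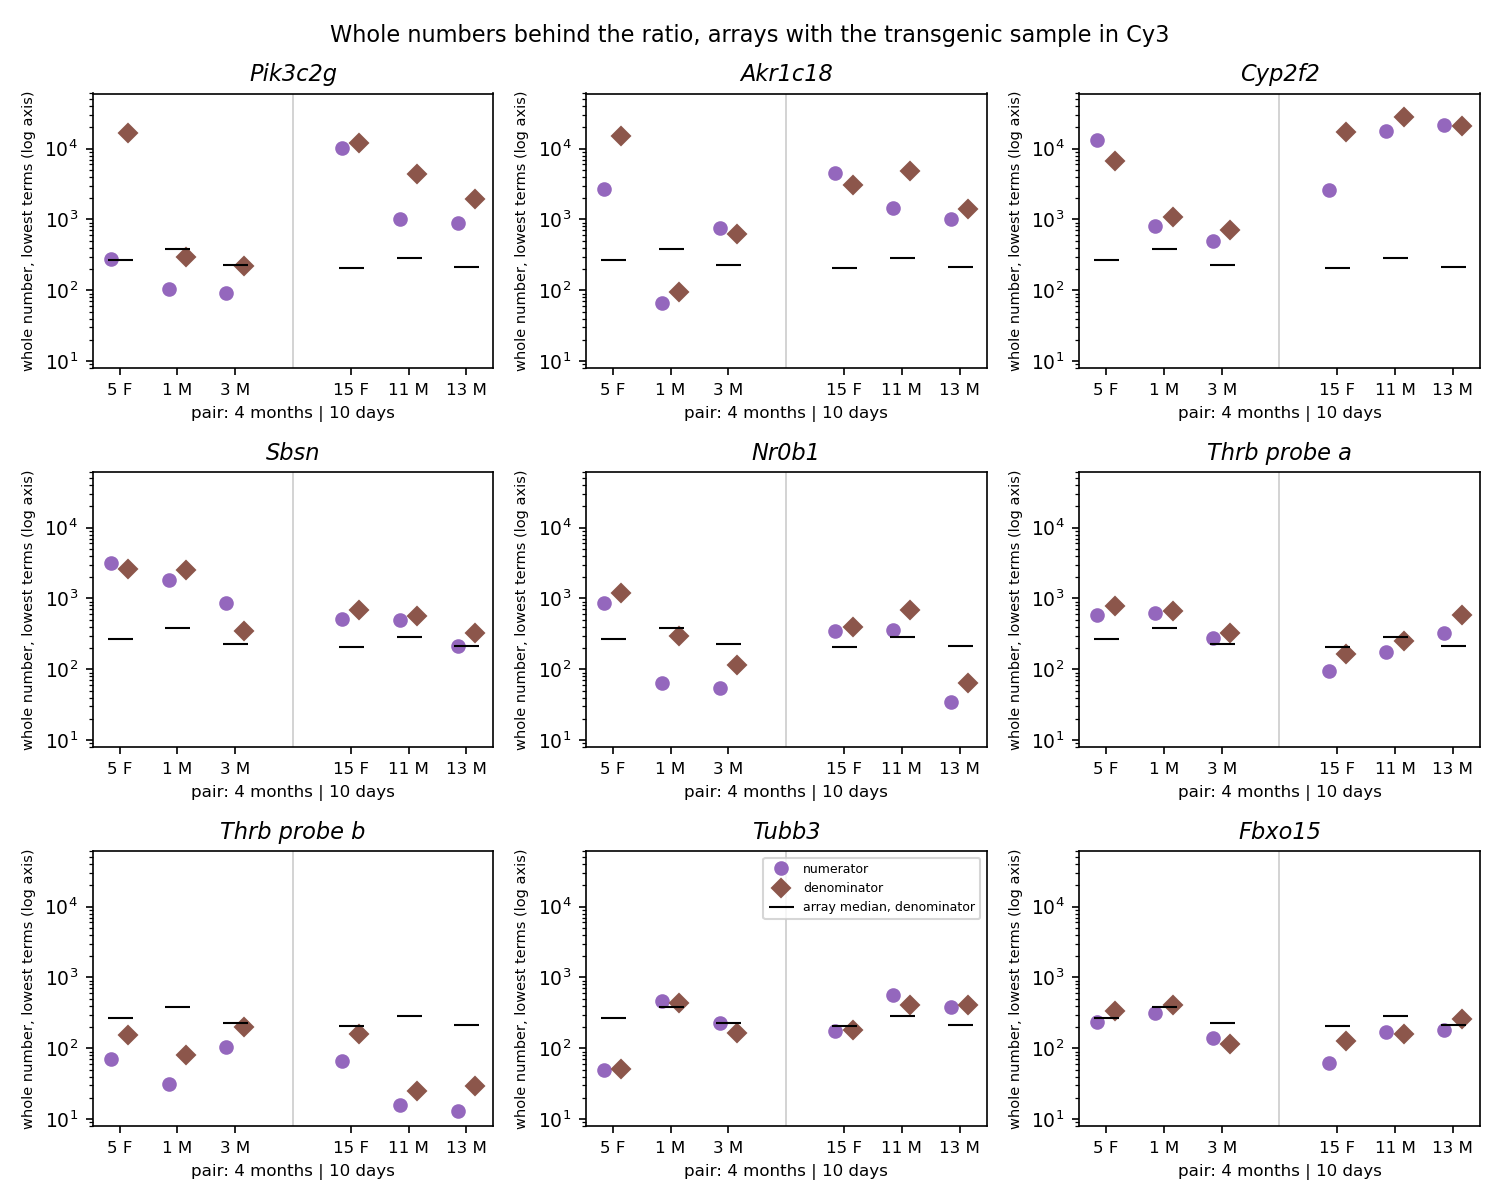
Whole numbers recovered from the deposited ratios on the 6 arrays that had transgenic RNA in Cy3 (vertical axis, log scale, scanner units up to a common factor), 1 panel per probe and 1 position per pair, with separate marks for numerator and denominator and black dashes for the median denominator of the array. Pik3c2g and Akr1c18 have their largest denominator in pair 5 and their smallest in the male pairs 1 and 3.

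Nr0b1 encodes DAX-1. Its ratio was -0.33, -0.92 and -0.54 in pairs 5, 1 and 3 at 4 months, and 0.20, -0.58 and -0.21 in pairs 15, 11 and 13 at 10 days. It was negative in all 3 pairs at 4 months and in 5 of 6 pairs over both ages, and the ranges of the ages overlapped. The mean was -0.60 ± 0.30 at 4 months (SD, n = 3; unadjusted p = 0.00791, limma adjusted p = 0.276), the smallest unadjusted p of the 8 genes in that comparison. It was -0.20 ± 0.39 at 10 days (SD, n = 3; limma adjusted p = 0.798) and -0.40 over all 6 pairs (SE 0.12, limma adjusted p = 0.197). The difference between the ages was -0.39 (limma adjusted p = 0.933) and that between female and male pairs 0.50 (limma adjusted p = 0.858). The arrays of pairs 1 and 3 disagreed, at -1.89 and 0.05 in pair 1 and -1.10 and 0.02 in pair 3, with the array that had transgenic RNA in Cy3 named first. Its Cy3 spots were dim there, at 64 over 293 and 55 over 117, above 36.0% and 22.6% of spots, and brighter in pair 5, at 858 over 1189, above 84.7%.

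Thrb encodes thyroid hormone receptor beta. It was the only member with the same sign in 6 of 6 pairs, which 10.4% of 20356 features showed, and no member had the same sign on all 12 arrays, as 1.71% of those features did. Its ratio was -0.12, -0.14 and -0.07 in pairs 5, 1 and 3 at 4 months, and -0.08, -0.34 and -0.15 in pairs 15, 11 and 13 at 10 days, with a mean of -0.15 ± 0.10 (SD, n = 6; limma adjusted p = 0.358). Its 2 probes disagreed in the female pairs. Probe a was at -0.37 in pair 5 and -0.38 in pair 15, where probe b was at 0.13 and 0.22, so the averaged values near -0.1 there hide a difference between probes. Probe b was positive there only with transgenic RNA in Cy5, at 0.34 in pair 5 and 0.56 in pair 15. With it in Cy3 probe b was at -0.08 and -0.11. In the male pairs both probes were negative, from -0.43 to -0.02 for probe a and from -0.27 to -0.09 for probe b.

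Sbsn encodes suprabasin, a secreted protein best known from the epidermis. Its ratio was 0.03, -0.87 and 1.10 in pairs 5, 1 and 3 at 4 months, against -0.03, -0.14 and 0.03 in pairs 15, 11 and 13 at 10 days. The 2 male pairs at 4 months lay on opposite sides of 0, each with the same sign on both arrays, at -0.49 and -1.25 in pair 1 and 0.96 and 1.23 in pair 3. The 10-day pairs all lay within 0.15 of 0. The spread was 0.98 at 4 months and 0.09 at 10 days (SD, n = 3 each), around means of 0.09 and -0.05 (limma adjusted p = 0.978 over all 6 pairs). In pair 3 the median of 13 leukocyte markers was -1.93, with 0 positive. Marco (a macrophage scavenger receptor), Cd79b and Cd79a (parts of the B cell receptor) were at -6.25, -5.18 and -4.18 there. The 9 keratinocyte markers had a median of 0.16 in that pair, with 6 positive and a range of -1.13 to 0.51. Among them Dmkn was at 0.47 and Ivl at 0.42. The part of these markers in the Sbsn value was not tested.

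Tubb3 and Fbxo15 had the smallest spreads beside Thrb. Tubb3, a beta tubulin of neurons, was at -0.11, 0.36 and 0.17 in pairs 5, 1 and 3, and at 0.34, 0.31 and 0.12 in pairs 15, 11 and 13. It was positive in 5 of 6 pairs, with a mean of 0.20 ± 0.18 (SD, n = 6; unadjusted p = 0.0452, limma adjusted p = 0.323). The sign of this mean changed with the dye: the mean was 0.44 over arrays that had transgenic RNA in Cy3 and -0.04 over the others. Fbxo15, an F-box protein of ubiquitin ligases, was at -0.04, 0.32 and 0.33 in pairs 5, 1 and 3, and at -0.01, 0.22 and 0.25 in pairs 15, 11 and 13. The 4 male pairs were positive and both female pairs just below 0, and the mean was 0.18 ± 0.16 (SD, n = 6; limma adjusted p = 0.365). Both female values averaged arrays of opposite sign, 0.04 and -0.12 in pair 5 and -0.27 and 0.25 in pair 15.

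Since the X-zone lies against the medulla and Tubb3 is also made by neurons, markers of both were set beside it. Of 17 measured chromaffin cell markers 15 were positive over all 6 pairs and 2 passed, Gal (galanin) at 1.20 and Pcsk1 (a prohormone convertase) at 0.67. Pnmt, the enzyme that forms adrenaline, was at 1.15 (limma adjusted p = 0.0654). The median of the list by pair was 0.60, 0.30 and 0.75 in pairs 5, 1 and 3 and 0.74, -0.01 and 0.42 in pairs 15, 11 and 13. Of the 11 neuron markers 1 passed, Stmn3 (a stathmin) at 0.84, Gap43 (a growth cone protein) was at 0.31, and their median lay between -0.02 and 0.27. Tubb3 was lowest in pair 5, where the chromaffin median was 0.60. Their part in the Tubb3 ratio was not tested.

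**Figure D4:**
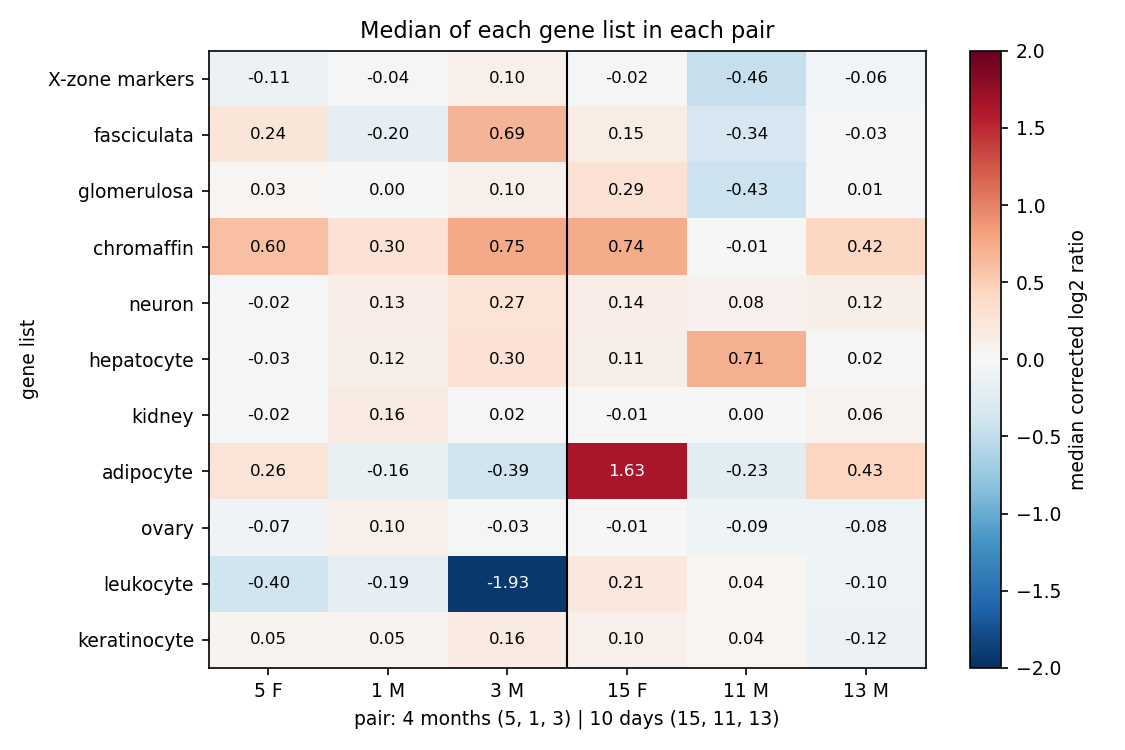
Median log2 ratio (colour and number, dye trend corrected, deposited direction) of each gene list (down) in each pair (across). Leukocyte markers are lowest in pair 3, at -1.93, adipocyte markers highest in pair 15, at 1.63, and hepatocyte markers highest in pair 11, at 0.71, while the X-zone markers range from -0.46 to 0.10.

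In the families and pathways of these genes, 0 members passed over all 6 pairs. The aldo-keto reductases and related enzymes of Akr1c18 had 3 positive and 5 negative ratios among 8 measured, with a median of -0.06, and the largest means belonged to Akr1a1 at -0.29 ± 0.12 and Akr1d1, a steroid reductase, at -0.26. Among 10 measured phosphoinositide 3-kinase genes 2 were positive and 8 negative, with a median of -0.04, led by Pik3cd at -0.22 and Pik3r2 at -0.19. In pair 5 Akr1d1 was at -1.42 and Akr1c12, a close relative of Akr1c18 named after its value was seen, at -1.25, beside -2.56 for Akr1c18. Whether the probes of these relatives detect each other's transcripts was not tested. Of 13 measured genes of the cytochrome P450 family of Cyp2f2, 7 were positive and 6 negative, with a median of 0.06, led by Cyp2d22 at 0.49 and Cyp2a12 at 0.23.

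The thyroid hormone genes beside Thrb numbered 15, with 7 positive, 8 negative and a median of -0.02. Slc16a10, a transporter of aromatic amino acids and thyroid hormone, was at 0.61 ± 0.25 (SD, n = 6; limma adjusted p = 0.088) and positive in 6 of 6 pairs, and Crym, which encodes a thyroid hormone binding protein, at 0.57 ± 0.87. Of 12 genes of the SF-1 and DAX-1 network 3 were positive and 9 negative, with a median of -0.05, and the largest means belonged to Wnt4, a signal of cortical zonation, at -0.46 ± 1.16 and to Nr5a1. Of 12 genes for hormones and receptors that bear on the X-zone 2 were positive and 10 negative, with a median of -0.11, led by the activin receptor gene Acvr2b at -0.37 and Tgfbr3 at -0.31. The other beta tubulins had 3 of 5 positive (median 0.01, Tubb6 at 0.32 and Tubb4a at 0.12), and the ubiquitin ligase genes 5 of 7 (median 0.03, Skp2 at -0.22 and Fbxo5 at 0.18).

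Genes of the other cortical zones gave no call either. The zona fasciculata and steroid synthesis genes had 4 positive and 5 negative among 9 measured, with a median of -0.03, led by Cyp21a1, the steroid hydroxylase, at -0.99 ± 2.25 and Fdx1, the ferredoxin of steroid synthesis, at 0.38. Their median by pair ran from -0.34 in pair 11 to 0.69 in pair 3. Cyp21a1 was at -3.18 in pair 11 and -3.96 in pair 13, and Star, which carries cholesterol into mitochondria and is named after its value was seen, at -2.04 in pair 5. The 8 zona glomerulosa genes had 4 positive and 4 negative, with a median of 0.03, and the aldosterone synthase gene Cyp11b2 was at -0.36 and Rgs4 at 0.23. Their median was lowest in pair 11, at -0.43, so the medians of the X-zone, fasciculata and glomerulosa lists were all at their lowest in that pair, at -0.46 for the X-zone markers. The median of the chromaffin cell markers was at its lowest there too, at -0.01. The part of what these lists share in the low X-zone ratios of pair 11 was not tested.

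For the 5 members whose pair values spanned at least 1 on the log2 scale, the genes with the most similar values were found by the root mean square difference over the 6 pairs among 17047 named genes. Akr1c18 was closest to Nox4, an NADPH oxidase gene, at 0.47, AI987944 at 0.50 and Mgat4c at 0.60. Pik3c2g was closest to Acsm4 and to Akr1c18, both at 1.38, and to Zg16 at 1.48, so that Akr1c18 was the only other member among these. The closest gene was farther from Pik3c2g than from any other of these members. Pik3c2g also had the widest span, and the order of the closest distances followed that of the spans. Cyp2f2 was closest to Mgam, an intestinal glucosidase gene, at 1.04, Fbxo3 at 1.25 and Lefty1 at 1.26. Sbsn was closest to Ogdh at 0.23, Nyap1 at 0.24 and Tef at 0.27, and Nr0b1 to Msl1 at 0.12, Phf23 at 0.13 and Chsy1 at 0.14.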

How the data were processed

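The authors deposited log2 ratios between the channels for 25344 spots on each of 12 arrays, and 4.30% to 6.59% of spots per array were empty. The sources used here do not name the scanner, the background correction or the normalization. Signal over background is unknown. Deposited array medians lay between -0.68 and -0.22 with transgenic RNA in Cy3 and between 0.74 and 1.50 with it in Cy5, so the values were not centred. The descriptions give 1 date to all arrays of one dye orientation and another to the rest, so dye and date cannot be told apart. On the 6 arrays that had transgenic RNA in Cy3, 2 raised to each deposited log2 value was a ratio of whole numbers up to 65535. The relative tolerance was 1e-13. The geometric mean of both numbers gave a spot signal, and its 75th percentile over these arrays was the signal of the probe.

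A loess curve (span 0.3) of ratio on this probe signal, the same for all arrays, was subtracted from each array. Probes of a gene were averaged, then the 2 arrays of a pair. A feature needed a value in at least 2 of 3 pairs of each group. The fit used limma 3.58.1 (R 4.3.3) on the 6 pair values, with a mean per age, and for the sexes a sex term as well. Tests were two-sided, with Benjamini-Hochberg adjustment over 21513 features (21504 for the sexes) and a threshold of 0.05. The procedure was tested on simulated data. Arrays of a pair are technical repeats and count once.

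Probes were named by the platform's annotation: 21082 probes had 1 gene, 30 several and 4232 none, and 20456 of those with 1 gene matched mouse RefSeq, which also supplied the promoter windows. Beside the members, the text names the 2 genes of each list with the largest mean over 6 pairs, every list gene past the threshold, the 3 genes most like each member with a span of at least 1, and markers of other cells beyond 3 in a pair where a member moved. Members, lists and comparisons were chosen with earlier results of these data known. The alternatives were median centring, no correction, a wider loess span, each dye alone, all arrays with blocks, a sex term and an ordinary linear model. Others were single probes, no filter, only features with a value on all arrays, leaving out probes near the scanner limit and leaving out pairs. The Cyp2f2 probe was not flagged as near that limit, but brightness was known only up to a common factor.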

Additional observations from a re-analysis of the deposited data

Results flagged for a closer look

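Among the 68 genes of the text tested this way, 12 had 1 pair far from the other 5, where chance alone gives about 5%; many of these genes were named because of a large value in 1 pair. Of the members, Pik3c2g was at -5.77 in pair 5, where the other pairs lay between -1.92 and 0.26, and Thrb was at -0.34 in pair 11, where the others lay between -0.15 and -0.07. Pair 11 also stood apart for the hepatocyte markers Alb, at 6.73 against -0.47 to 1.70, Ahsg, at 5.56 against 0.22 to 1.15, and Fgg, at 3.22 against -0.22 to 0.37, and for the cytochrome P450 gene Cyp2a12, at 1.77 against -0.50 to 0.12. Pair 3 stood apart for Marco, at -6.25 against -0.23 to 1.15, Cd79a, at -4.18 against -0.29 to 0.07, and Cd79b, at -5.18 against -0.07 to 1.31. Adipoq was at 5.13 in pair 15, against -1.80 to 0.71. Of the genes most like a member, Zg16 was at -2.71 in pair 5, against -0.81 to -0.36, and Lefty1 at -1.84 in pair 15, against -0.22 to 0.50.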

How the results depend on the processing

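Of 600 values of single members under the alternatives, 559 kept their sign and their side of the threshold, 35 changed sign and 6 passed the threshold. Each value is a ratio within a pair of littermates, while the ages hold different pairs and were compared without pairing. With no correction of the dye trend 4 members passed over 6 pairs, Pik3c2g at -1.25, Cyp2f2 at -0.85, Tubb3 at 0.45 and Fbxo15 at 0.49, and Thrb turned to 0.13 over 6 pairs, 0.24 at 4 months and 0.016 at 10 days and Cyp2f2 to 0.22 at 4 months. The counts over all features were then 5964 over 6 pairs, 2548 at 4 months, 18 at 10 days, 16 between the ages and 79 between the sexes. Arrays with the transgenic sample in Cy3 alone gave counts of 1411, 288 and 31 over 6 pairs, at 4 months and at 10 days, with 1 member past the threshold, Tubb3 at 0.44, and Sbsn at -0.0028 over 6 pairs. Those with it in Cy5 gave 3438, 912 and 222, and turned Tubb3 to -0.043 over 6 pairs and -0.11 at 4 months, Cyp2f2 to 0.095 and Sbsn to -0.074 at 4 months, Sbsn to 0.16 at 10 days, Pik3c2g between the ages to 0.31 and Nr0b1 between the sexes to -0.13. All arrays with blocks gave 777, 289, 75 and, between the sexes, 21. Over 6 pairs median centring gave 0 and Sbsn at -0.11 (-0.0029 at 4 months), the sex term 0, the ordinary linear model 1 (also 1 between the sexes) and single probes 54. Without pairs 11, 15 and 3 the count over 6 pairs was 0, Cyp2f2 was at 0.10 over 6 pairs, 0.080 at 4 months, 0.12 at 10 days and -0.044 between the ages, and Sbsn at -0.19, -0.42 and 0.030. The cause of these changes was not tested.

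Leaving out 1 pair gave 0 to 15 features over 6 pairs, 0 to 5 at 4 months, 0 to 1 at 10 days and 0 to 3 between the sexes, with 0 to 1 members between the sexes. The 1 member was Pik3c2g without pair 15, when the lone female pair was assumed to vary like the male pairs. The members that changed sign or passed ran, over 6 pairs, Sbsn -0.23 to 0.26, and at 4 months, Cyp2f2 -0.53 to 0.080, Sbsn -0.42 to 0.56, Akr1c18 -1.24 to 0.12 and Pik3c2g -2.87 to 0.15, and at 10 days, Akr1c18 -0.87 to 0.15, and between the ages, Akr1c18 -0.92 to 0.51 and Pik3c2g -1.89 to 1.13, and between the sexes, Akr1c18 -2.68 to 1.42, Pik3c2g -5.91 to 1.29 and Cyp2f2 -3.40 to 1.17. These values rest on 6 pairs with 1 female pair per age, and the comparison of the sexes could not be fitted without pairs 11, 15 and 3.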
